A study of Mus musculus with 19 samples.

Results

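The genes of oxidative phosphorylation were taken from the deposited table by their mouse symbols: the Nduf, Sdha to Sdhd, Uqcr, Cyc1, Cox4 to Cox8 and Atp5 names for nuclear genes, and the mt-Nd, mt-Co, mt-Atp and mt-Cytb names for genes of the mitochondrial genome. A gene also had to reach a value of 10 in at least 6 of the 19 libraries. By symbol 117 rows matched, and 101 of them passed the filter, out of 14875 passing genes in all. Of these 101 members, 93 are nuclear and 8 are mitochondrially encoded. The nuclear members comprise 77 subunits (36 of complex I, 4 of complex II, 9 of complex III, 12 of complex IV and 16 of complex V), 9 assembly factors that the names catch, 3 tissue or paralogue isoforms, 2 gene copies and 2 pseudogenes. The 16 rows under the filter were mt-Co2, mt-Co3, mt-Atp6, mt-Atp8, mt-Nd4l, the isoforms Cox6a2, Cox7b2, Cox8b, Cox8c and Ndufa4l2, the copies Ndufa11b and Ndufb4c, and the pseudogenes Uqcrh-ps1, Atp5k-ps2, Atp5l-ps1 and Atp5l-ps2.

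The respiratory chain passes electrons from NADH through complex I, or from succinate through complex II, to ubiquinone, then through complex III, cytochrome c and complex IV to oxygen. The proton gradient this builds drives ATP synthesis by complex V. Most subunits are encoded in the nucleus and imported, while a small set of hydrophobic core subunits is transcribed and translated inside the organelle, so every complex except complex II is assembled from products of both genomes.

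Kupffer cells, the macrophages resident in liver sinusoids, had been sorted from livers of female C57BL/6 wild-type mice. Chow_EmKCs (n = 6) are CLEC2+ TIMD4+ cells, labelled as embryo-derived, from mice on chow. MCD_EmKCs (n = 6) passed the same gate but came from mice kept for 4 weeks on a methionine- and choline-deficient (MCD) diet, a standard way to bring on steatohepatitis. MCD_MoKCs (n = 7) are CLEC2+ TIMD4- cells, labelled as monocyte-derived, from MCD-fed mice. No chow group of MoKCs is among the samples, so origin is compared only under the MCD diet. Origin rests on the gate alone.

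Libraries were made by SMART-seq amplification and held 11642240 to 30983487 reads. Of 12 Kupffer cell markers all were detected, and they summed to 3.12% ± 0.255 of reads (SD, n = 6) among Chow_EmKCs. The sum was 2.44% ± 0.274 (n = 6) for MCD_EmKCs, and for MCD_MoKCs it was 0.986% ± 0.109 (n = 7). Clec4f, a lectin restricted to Kupffer cells, ran from 13947.6 to 27159.9 in MCD_MoKCs and from 150476.0 to 162761.6 in MCD_EmKCs. Nothing in the sources ties libraries to separate animals, so p-values measure the spread between these samples, which may be technical. Values below are deposited normalised reads (reads per gene divided by a factor per library). In these bulk samples fewer transcripts per cell and fewer cells of a type cannot be told apart.

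Of the 13 protein-coding genes of the mitochondrial genome, 7 had means over all libraries of 2176.8 (mt-Nd6) to 18069.6 (mt-Co1) normalised reads, and 6 had means of at most 28.1 (mt-Nd3). Of the 6 low genes, 5 share nearly all of their sequence with other annotated transcripts. In mt-Co2, which encodes a copper-binding core subunit of complex IV, 100% of the stretches of 50 bases occur elsewhere, 99.5% of them in Gm28661, an unprocessed pseudogene at chr1:24614885-24615565 on the minus strand (GENCODE vM21 transcripts on mm10). The mitochondrial gene (chrM:7013-7696, plus strand) and this nuclear copy are identical over the 681 bases compared. Their opening bases are shown as an example of a shared stretch, with no capitals since no base differs.
mt-Co2: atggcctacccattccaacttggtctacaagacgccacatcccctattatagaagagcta
Gm28661: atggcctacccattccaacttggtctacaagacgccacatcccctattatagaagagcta
For mt-Nd3 (chrM:9459-9806, plus strand), a core subunit of complex I, the copy is Gm28438 (chr1:24612775-24613119, minus strand) and differs by T3C alone, counted from the first base of the mitochondrial transcript. The differing base is in capitals.
mt-Nd3: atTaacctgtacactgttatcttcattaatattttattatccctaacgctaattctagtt
Gm28438: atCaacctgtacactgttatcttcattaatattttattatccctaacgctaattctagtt
No stretch of mt-Cytb (chrM:14145-15288, plus strand), the only mitochondrially encoded subunit of complex III, occurs in another annotated transcript. It begins as follows.
mt-Cytb: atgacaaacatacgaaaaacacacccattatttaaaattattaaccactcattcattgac

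Besides mt-Co2 and mt-Nd3 (100% and 98.0% of their 50-base stretches shared), the same block of chromosome 1 holds copies of mt-Co3 (99.9% shared), mt-Atp6 (99.5%) and mt-Nd4l (98.8%). The highest value of these 5 genes in any library was 99.7 for mt-Nd3, and for mt-Co2 it was 13.9. mt-Atp8, a short gene with 0% shared, reached at most 8.42. Genes with part of their sequence shared were listed high: mt-Nd4 with 62.2% and mt-Co1 with 51.1% shared had means over all libraries of 4599.1 and 18069.6. Little or nothing was shared by mt-Nd1, mt-Nd6 and mt-Cytb (0%), mt-Nd2 (8.19%) and mt-Nd5 (7.61%). How reads that fit several places were counted is not given in the sources used here, so the listed values of mt-Nd3, mt-Nd4, mt-Nd4l, mt-Co1, mt-Co2, mt-Co3 and mt-Atp6 may leave out reads. For mt-Atp8 no shared stretch was found, but only annotated transcripts were searched. Copies elsewhere in the genome were not looked for, so the same limit may hold. It was not analysed further because it was under the filter.

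Per kb of transcript, 4 of 8 mitochondrially encoded members stood above every nuclear member by their means in Chow_EmKCs. The level per kb was 25466.2 normalised reads for mt-Cytb, 17504.1 for mt-Co1, 15057.2 for mt-Nd1 and 7948.8 for mt-Nd2. The other four ran from 118.3 (mt-Nd3) to 5868.3 (mt-Nd6). The highest nuclear level per kb was 7420.5 for Cox5a, a structural subunit of complex IV, followed among members named here by 5036.8 for Cox4i1 and 4144.2 for Atp5e. The catalytic beta subunit of ATP synthase, Atp5b, had 3653.2 per kb, and the iron-sulfur subunit of complex II, Sdhb, 2387.5 per kb. Ndufs1, which carries iron-sulfur clusters of the NADH arm of complex I, had 223.7 per kb.

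The first comparison sets MCD_EmKCs against Chow_EmKCs and asks what the diet changed in cells of the same gate. Mitochondrially encoded members were lower under the MCD diet: 7 of 8 passed the threshold (limma, adjusted p under 0.05), all lower, with a median log2 fold change over the 8 of -1.45. Of the nuclear members 0 of 93 passed, with a median of -0.33. Among all 14875 genes 4.08% passed in this comparison, 1.58% lower and 2.50% higher, and the median was -0.04. mt-Nd3 was the member that did not pass.

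mt-Cytb ran from 17405.6 over a median of 26929.4 to 43007.0 in Chow_EmKCs and from 7001.4 over 9169.0 to 11303.7 in MCD_EmKCs. All 6 MCD libraries lay below all 6 chow libraries, and the log2 fold change was -1.59 (SE 0.18, adjusted p = 2.07e-06). mt-Nd2, a core subunit of the membrane arm of complex I, ran from 5275.1 over 7506.3 to 14306.3 in chow and from 1243.2 over 2000.7 to 3116.3 under MCD, a log2 fold change of -2.0 (SE 0.27, adjusted p = 2.79e-05). It had the largest fall among members that passed, again without overlap. mt-Nd4 and mt-Nd5, proton-pumping subunits of complex I, had means of 7541.7 ± 2933.1 and 6952.7 ± 1951.5 in chow (SD, n = 6) and 2354.3 ± 391.4 and 2735.3 ± 477.4 under MCD (n = 6). Their log2 fold changes were -1.61 (adjusted p = 9.65e-05) and -1.32 (adjusted p = 0.000273).

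mt-Nd1, where ubiquinone binds in complex I, ran from 8047.7 to 19686.2 in chow and from 3789.2 to 7823.2 under MCD (log2 fold change -1.24, SE 0.22, adjusted p = 0.00113). mt-Nd6 is the only protein gene on the light strand, and without strand information its reads cannot be told apart from antisense reads of the heavy-strand transcript. It had 1965.2 to 5398.6 in chow and 970.3 to 1828.0 under MCD (log2 fold change -1.22, adjusted p = 0.00552). These 2 genes and the 4 above gave 6 of 8 members whose ranges did not overlap. Among all 14875 genes tested, 210 lay wholly lower and 230 wholly higher. mt-Co1, the haem-bearing catalytic subunit of complex IV, overlapped, since 1 chow library at 13388.5 lay below the highest MCD library at 14300.3, with a log2 fold change of -1.23 (adjusted p = 0.0123). mt-Nd3 had 17.5 to 60.4 in chow and 0 to 27.2 under MCD, with 2 of 6 MCD libraries at 0 (log2 fold change -2.76, adjusted p = 0.193).

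**Figure D1:**
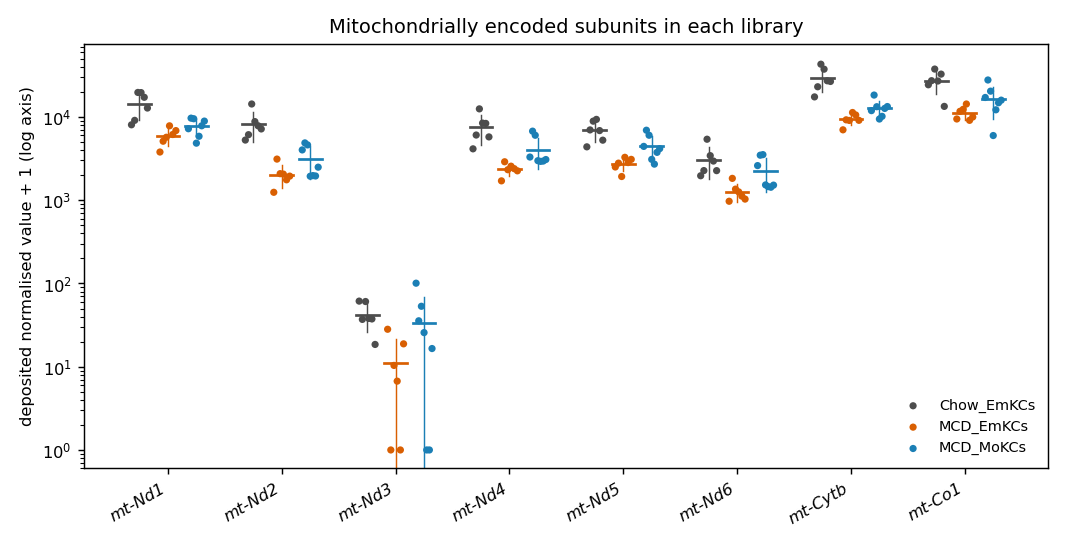
Deposited normalised value plus 1 (log axis) of the 8 mitochondrially encoded members in each of the 19 libraries. Points are libraries coloured by group, horizontal bars are means and vertical bars are SD, cut at the bottom of the axis; for 6 genes the MCD_EmKCs points lie wholly below the Chow_EmKCs points, while mt-Nd3 is far below the other 7 genes.

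The mitochondrial ribosomal RNAs, which come from the same polycistronic transcript and are no members, were lower as well: mt-Rnr1 had 2462.2 ± 1125.6 in chow and 697.8 ± 267.8 under MCD (log2 fold change -1.77, adjusted p = 0.0318), and mt-Rnr2 31132.1 ± 9557.3 and 9777.3 ± 1707.6 (-1.64, adjusted p = 0.0233). Summed as a share of all reads, mitochondrially encoded members took 0.538% ± 0.155 in chow (0.354 to 0.749%) and 0.185% ± 0.0431 under MCD (0.118 to 0.250%). Nuclear members took 0.602% ± 0.129 and 0.486% ± 0.0807, with ranges that overlapped. The ratio of nuclear to mitochondrially encoded reads was 1.21 ± 0.484 in chow and 2.69 ± 0.438 under MCD, and the highest chow library (2.03) lay below the lowest MCD library (2.09).

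**Figure D2:**
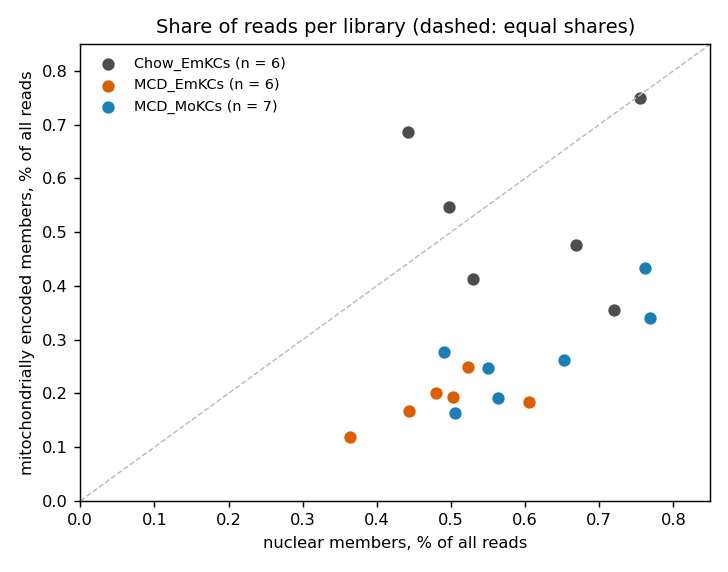
Percent of all reads on the 8 mitochondrially encoded members (vertical axis) against percent on the 93 nuclear members (horizontal axis), a point per library. Chow_EmKCs points lie on both sides of the dashed line of equal shares, while MCD_EmKCs points lie at 0.118 to 0.250% on the vertical axis.

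Hepatocyte transcripts moved with this result. Of 18 hepatocyte markers, 11 were lower in MCD_EmKCs and 0 higher, and their summed share was 0.0333 to 0.104% of reads in chow and 0.00496 to 0.0264% under MCD. Alb, the albumin gene, had 3113.3 ± 1529.9 and 530.7 ± 575.4 normalised reads in these groups. No marker of the 18 was at 0 throughout a group. The summed hepatocyte shares did not overlap between the groups, so diet and hepatocyte share cannot be told apart here. Genes that respond to cell isolation took 2.24% ± 0.298 of reads in chow and 3.22% ± 0.254 under MCD, and of 12 tested 7 were higher and 0 lower. Of 3 platelet markers tested 2 were higher under MCD, with a summed share of 0.00122 to 0.00352% in chow and 0.00463 to 0.00766% under MCD. Of 12 sinusoidal endothelial markers 2 were higher and 0 lower, and of 11 T and NK cell markers tested 1 was higher and 0 lower. Of 12 Kupffer cell markers 1 was higher and 4 lower. No B cell, erythroid, neutrophil or stellate cell marker passed. The part of these in the result was not tested.

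The numbers in the library names fall into a set up to 33 and a set from 37, whose meaning the labels do not give, and the falls were computed again within each set of 3 against 3. mt-Cytb gave -1.63 (adjusted p = 0.00747) in the first set and -1.55 (adjusted p = 0.000169) in the second. mt-Nd2 gave -1.95 (adjusted p = 0.0755) and -2.04 (adjusted p = 3.33e-05), mt-Nd4 -1.59 (adjusted p = 0.0755) and -1.63 (adjusted p = 0.000393), and mt-Nd5 -1.45 (adjusted p = 0.0426) and -1.19 (adjusted p = 0.00846). Sizes were alike in both sets, while of the 7 genes only mt-Cytb and mt-Nd5 passed in both.

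Among nuclear members of complex I the median log2 fold change was -0.31 over 36 subunits, 32 of them negative. Ndufs1 went the other way, with 519.6 over 574.7 to 751.0 in chow and 705.2 over 870.7 to 1182.4 under MCD, and did not pass (log2 fold change 0.59, SE 0.18, adjusted p = 0.0883). Ndufs3, a core subunit of the peripheral arm, had 279.4 to 554.4 in chow and 93.1 to 292.3 under MCD and did not pass either (-0.93, adjusted p = 0.0901). It is named because another tool called it, and 39.7% of its 50-base stretches are shared with other transcripts. Ranges of both overlapped. With DESeq2 on the recovered reads Ndufs1 (0.60, adjusted p = 0.0241), Ndufs3 (-0.92, adjusted p = 0.0351) and the isoform Cox4i2 (adjusted p = 0.00351) passed. edgeR's quasi-likelihood test passed Cox4i2 alone (adjusted p = 0.0452). Cox4i2 entered these tests only through MCD libraries, and 15 of 93 nuclear members had an unadjusted p under 0.05 in limma.

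The other complexes gave medians of -0.27 (complex II, 4 subunits), -0.34 (complex III, 9), -0.29 (complex IV, 12) and -0.31 (complex V, 16), with 0 subunits past the threshold in each. Of 9 catalytic or central nuclear subunits 0 passed, with log2 fold changes from -0.35 (Sdhb, adjusted p = 0.238) to 0.59 (Ndufs1). Between them lay Ndufv1 (-0.15), Atp5a1 (-0.09), Cyc1, cytochrome c1 of complex III (-0.03), Cox4i1 (-0.00), Atp5b (0.02), Sdha, the flavoprotein of complex II (0.20), and Uqcrfs1 (0.23). Atp5b had 6999.5 ± 1418.5 in chow and 6999.3 ± 774.9 under MCD. Uqcrfs1, the Rieske iron-sulfur protein of complex III, had 535.4 to 1349.3 and 865.5 to 1168.4 (0.23, adjusted p = 0.658). Ndufa4, once placed in complex I and now counted with complex IV, had 1660.5 ± 601.1 and 1384.1 ± 380.2 (-0.22, adjusted p = 0.706).

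**Figure D3:**
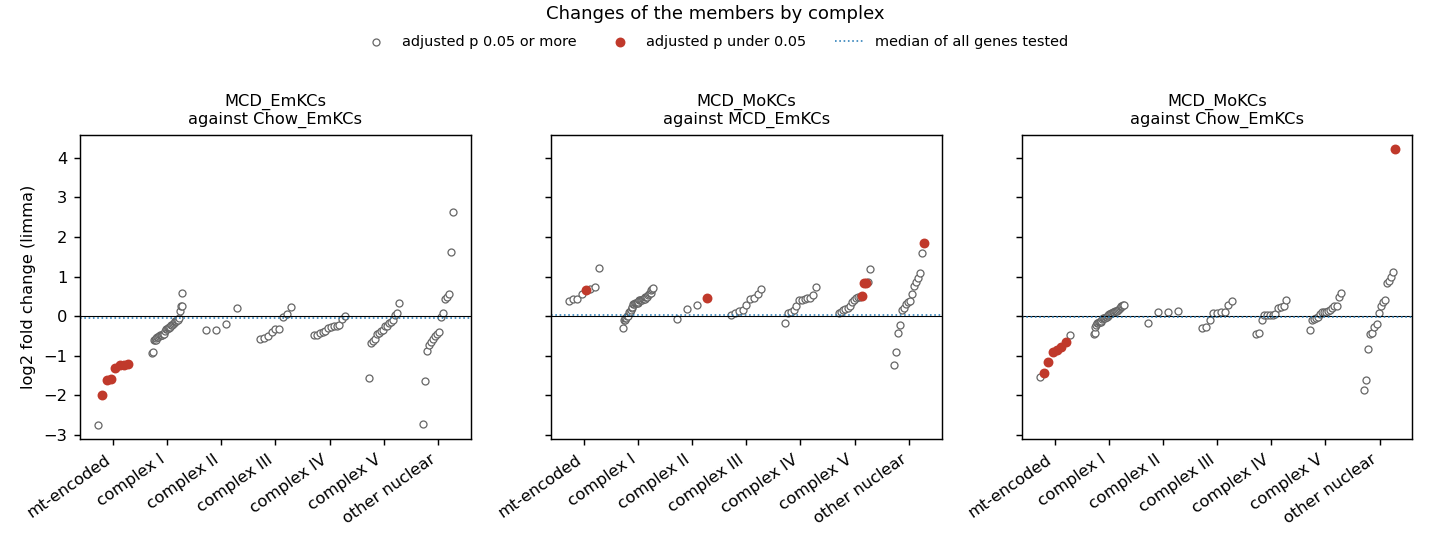
Log2 fold change of each of the 101 members in the 3 comparisons, sorted within mitochondrially encoded members, nuclear subunits of complexes I to V and other nuclear members (assembly factors, isoforms, copies, pseudogenes). Red points passed an adjusted p of 0.05 in limma and the dotted line is the median of all genes tested; red points are below 0 for mitochondrially encoded members in the left and right panels and above 0 in the middle panel.

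The second comparison sets MCD_MoKCs against MCD_EmKCs, the 2 gates under the same diet. Of 93 nuclear members 5 were higher and 0 lower, with a median log2 fold change of 0.36; 82 of 93 were positive. Among all genes 10.5% passed, 5.64% higher and 4.90% lower, with a median of 0.02. The 5 of 93 higher nuclear members are a share near that of all genes that were higher, while 0 were lower. Of 8 mitochondrially encoded members 1 was higher, with a median of 0.60. The 5 nuclear members were Sdhb, 3 subunits of ATP synthase (Atp5d, Atp5e and Atp5j2) and the assembly factor Ndufaf5.

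Ndufaf5, which modifies an arginine of NDUFS7 during complex I assembly, had 20.4 over 31.1 to 53.5 in MCD_EmKCs and 71.3 over 97.2 to 224.4 in MCD_MoKCs. It was the only nuclear member without overlap, with a log2 fold change of 1.84 (SE 0.50, adjusted p = 0.0153). Among all 14875 genes tested, 389 lay wholly higher and 334 wholly lower. In Chow_EmKCs Ndufaf5 had 16.8 to 94.96. Sdhb had 1658.1 to 2645.1 and 2398.4 to 3263.2 (0.46, SE 0.15, adjusted p = 0.0417). Atp5d, the delta subunit of the rotor's central stalk, had 1301.4 to 1831.2 and 1589.0 to 2787.9 (0.51, SE 0.15, adjusted p = 0.0342). Each of these last 2 genes overlapped between the groups.

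Atp5e, the epsilon subunit beside it in the central stalk, had 614.5 over 1034.8 to 1659.0 in MCD_EmKCs and 1134.0 over 1844.6 to 3163.3 in MCD_MoKCs (0.84, SE 0.27, adjusted p = 0.0444). Atp5j2, the f subunit of the membrane part, had 706.3 over 870.4 to 1194.0 and 1167.5 over 1439.1 to 2728.4 (0.83, SE 0.24, adjusted p = 0.022). In both genes MCD_MoKCs libraries 1, 2 and 3 were the highest, at 2528.3, 2705.4 and 3163.3 for Atp5e and 2111.0, 2728.4 and 2223.6 for Atp5j2. Libraries 4 to 7 of that group reached at most 1844.6 and 1439.1. Leaving out a single library ended the call in 3 of 19 fits for Atp5j2 (MCD_EmKCs 1, MCD_MoKCs 2 or MCD_MoKCs 3, adjusted p up to 0.0579), in 11 for Atp5e, in 9 each for Atp5d and Sdhb, and in 0 for Ndufaf5.

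The calls were computed again on parts of the MCD_MoKCs group. The labels do not give this split, and by their medians libraries 1 to 3 lay above libraries 4 to 7 in both kinds of members. Fewer calls without the higher libraries, and more without the lower ones, follow from these values and test nothing. Without libraries 1 to 3, which leaves 4 libraries, 0 of 93 nuclear and 0 of 8 mitochondrially encoded members passed, and of all genes 1010 passed, against 1568 with all libraries. The log2 fold changes were then 0.45 for Atp5j2 (adjusted p = 0.353) and 1.48 for Ndufaf5 (adjusted p = 0.152). For Ndufaf5 these 4 libraries (71.3 to 101.7) lay above the highest MCD_EmKCs library, which follows from the group ranges given above and tests nothing. Without libraries 4 to 7 instead, 23 of 93 nuclear and 6 of 8 mitochondrially encoded members passed, all higher, and of all 14875 genes 834 were higher and 868 lower. Libraries 1 to 3 also had 0.245 to 0.281% of reads on mitochondrial ribosomal RNA against 0.0577 to 0.0771% in libraries 4 to 7. They held 11642240 to 16750655 reads, against 19215122 to 30983487 in libraries 4 to 7. Of 11 T and NK cell markers tested, 6 were higher in MCD_MoKCs, with a summed share of 0.00545 to 0.00816% against 0.00122 to 0.00278% in MCD_EmKCs, while Trac was at 0 in all 6 MCD_EmKCs libraries. Platelet markers took 0.00896 to 0.0245% of reads in MCD_MoKCs, and of 12 sinusoidal endothelial markers 6 were higher and 3 lower there. The part of other cells in the result was not tested.

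**Figure D4:**
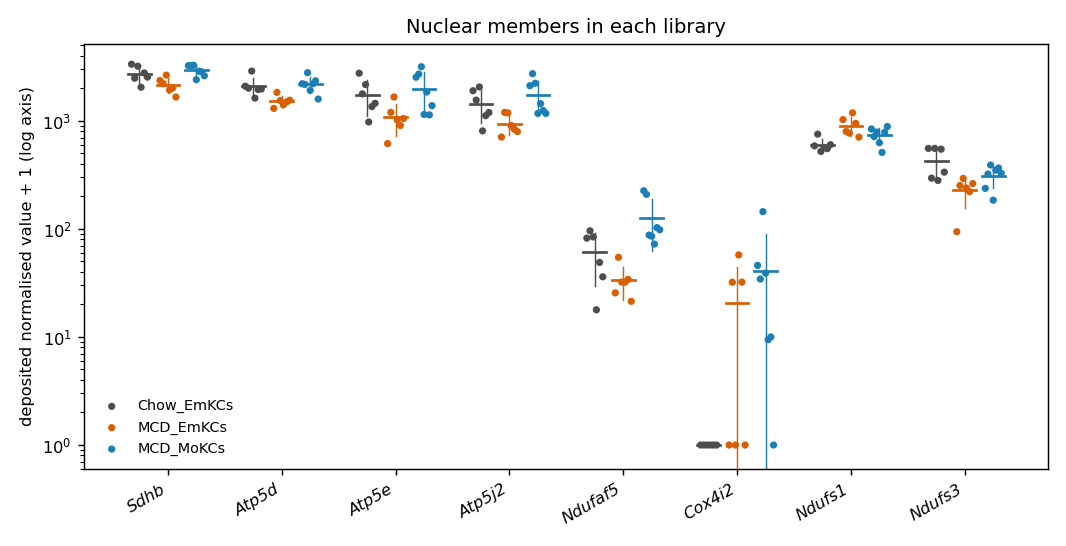
Deposited normalised value plus 1 (log axis) of 8 nuclear members in each of the 19 libraries, coloured by group, with means and SD (cut at the bottom of the axis). Ndufaf5 has all MCD_MoKCs points above the MCD_EmKCs points, and Cox4i2 is at 0 in all 6 Chow_EmKCs libraries.

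mt-Nd5 was the mitochondrially encoded member that passed, with 1924.2 to 3273.1 in MCD_EmKCs and 2711.0 to 6925.5 in MCD_MoKCs (log2 fold change 0.65, adjusted p = 0.0414). Leaving out a single library ended this call in 8 of 19 fits. mt-Nd4 did not pass although all 7 MCD_MoKCs libraries (2925.1 to 6748.7) lay above all 6 MCD_EmKCs libraries (1706.4 to 2893.6) (0.69, adjusted p = 0.0524). mt-Nd6 (0.74, adjusted p = 0.0612), mt-Cytb (0.43, adjusted p = 0.131) and mt-Nd2 (0.56, adjusted p = 0.185) did not pass and overlapped.

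Promoter windows of RefSeq (GRCm38.p6, 250 bases before to 50 after a start) were found for 72 of the 93 nuclear members. They were searched on both strands for 3 motifs long tied to respiratory chain genes: that of NRF1, CCGGAAG of the ETS family that includes NRF2 (GABP), and AAGATGGCG of YY1, which do not overlap each other in the windows shown. At least 1 of the 3 occurred in 38 of 72 members (52.8%), against 30.4% of the 10160 tested genes with a window and 15.1% of all 27025 genes with a window. NRF1 letters were in 26.4% of members and 11.2% of tested genes, ETS letters in 25% and 19.6%, and YY1 letters in 11.1% and 3.48%. Stretches with a match are printed for the 4 members that passed and held one, with the motif in capitals.
Ndufaf5 (chr2:140170622-140170676, plus strand): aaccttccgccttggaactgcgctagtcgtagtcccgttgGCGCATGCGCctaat
Sdhb (chr4:140961237-140961288, plus strand): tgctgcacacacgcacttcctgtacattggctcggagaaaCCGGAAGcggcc
Atp5e (chr2:174464192-174464243, minus strand): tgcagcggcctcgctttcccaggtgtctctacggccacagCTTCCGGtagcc
Atp5j2 (chr5:145191505-145191558, minus strand): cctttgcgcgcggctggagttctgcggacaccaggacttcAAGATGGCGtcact
The match begins at base 17 after the start in Ndufaf5 (NRF1), at base 7 in Sdhb (ETS), at base 102 before the start in Atp5e (ETS, on the opposite strand) and at base 24 after it in Atp5j2 (YY1). Both windows of Atp5d held none of the letters. No motif of the 3 was common to all 4 genes, and a match is a description of letters, not of a bound factor.

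The third comparison sets MCD_MoKCs against Chow_EmKCs, which differ in diet and gate together; it shares its groups with the 2 above. Mitochondrially encoded members were lower in 6 of 8 cases and higher in 0, with a median log2 fold change of -0.89, and the nuclear median was 0.07 with 1 of 93 higher and 0 lower. Among all genes 16.8% passed, 8.08% lower and 8.68% higher, with a median of -0.01. mt-Cytb had 9437.9 over 12653.9 to 18313.4 in MCD_MoKCs (-1.16, SE 0.17, adjusted p = 2.03e-05), and mt-Nd2 1939.8 over 2491.9 to 4876.3 (-1.44, adjusted p = 0.000203). Only mt-Nd2 kept the groups apart, while among all 14875 genes tested 520 lay wholly lower and 666 wholly higher. The other 4 were mt-Nd4 (-0.92, adjusted p = 0.00543), mt-Nd1 (-0.86, adjusted p = 0.00559), mt-Nd5 (-0.67, adjusted p = 0.0239) and mt-Co1 (-0.79, adjusted p = 0.0489).

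mt-Nd6 (-0.48, adjusted p = 0.218) and mt-Nd3 (-1.54, adjusted p = 0.38) did not pass. Leaving out a single library ended the call of mt-Co1 in 16 of 19 fits and of mt-Nd5 in 4 (Chow_EmKCs 3, Chow_EmKCs 4, MCD_MoKCs 4 or MCD_MoKCs 5, adjusted p up to 0.0721). Without MCD_MoKCs libraries 1 to 3, 7 of 8 were lower, mt-Nd6 among them (-0.95, adjusted p = 0.00779), and without libraries 4 to 7 the calls were mt-Nd2 (-0.80, adjusted p = 0.0432) and mt-Cytb (-0.97, adjusted p = 0.00441). Genes called among all were then 2093 and 2136, against 2493 with all libraries. Here too the split follows the values of the libraries. Of the 18 hepatocyte markers 16 were lower in MCD_MoKCs, at a summed share of 0.00438 to 0.0127% of reads. In the same comparison 10 of 12 Kupffer cell markers were lower, and 4 of 5 neutrophil, 5 of 11 T and NK cell and 2 of 3 platelet markers tested were higher. Of 12 sinusoidal endothelial markers 7 were higher and 3 lower. The part of these in the result was not tested.

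The nuclear member that passed was Cox4i2, the isoform of subunit IV of cytochrome c oxidase known for expression in lung and under low oxygen. It had 0 reads in all 6 Chow_EmKCs libraries, 0 in 3 of 6 MCD_EmKCs libraries with up to 56.5 in the others, and 0 in 1 of 7 MCD_MoKCs libraries with up to 143.3. Over the group MCD_MoKCs held 241 reads, at least 68.7-fold higher than the share that 3 reads over the chow group would give (adjusted p = 0.0117). Cox4i2 reached 10 in 7 libraries, all of them from MCD-fed mice, so it entered the test only through the groups where it is high, and its call is a description and no support. MCD_EmKCs held 150 reads (at least 47.1-fold higher, adjusted p = 0.278). The call ended without MCD_MoKCs libraries 1 to 3. The common isoform Cox4i1 averaged 3853.2 ± 1025.5 on chow, 3804.8 ± 879.9 for MCD_EmKCs and 5083.6 ± 1230.7 for MCD_MoKCs. Per kb its level in the last group was 6645.3, against 54.0 for Cox4i2. Other isoforms stayed low: Ndufa4l2 reached at most 18.8, and AA467197 (Nmes1, a relative of Ndufa4 outside the name rule) had 0 to 3.73 in Chow_EmKCs and 0 to 56.4 in MCD_MoKCs.

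Nuclear subunits varied together from library to library, and short transcripts more so. The median log2 distance of the 44 subunits with a principal transcript under 1000 bases from their mean over the 19 libraries ran from -0.59 (Chow_EmKCs 4) to 0.69 (Chow_EmKCs 3). For the 33 longer ones it ran from -0.40 to 0.44, and for all genes from -0.01 to 0.09. Among chow libraries the mitochondrially encoded members did not keep this order, since Chow_EmKCs 4 lay at 1.19 and Chow_EmKCs 1 at 0.16 in them while their short nuclear subunits lay at -0.59 and 0.57. In MCD_MoKCs, libraries 1 to 3 were above libraries 4 to 7 in both kinds.

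**Figure D5:**
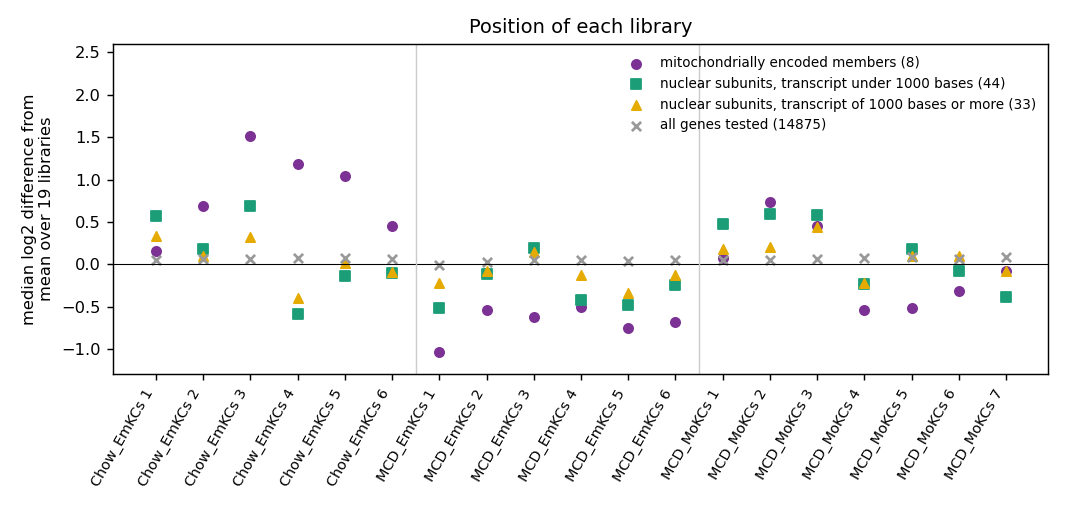
Median log2 difference from the mean over 19 libraries (vertical axis) for mitochondrially encoded members, nuclear subunits with short and long transcripts and all genes tested, by library. All 6 MCD_EmKCs libraries lie at or below -0.50 in mitochondrially encoded members, all 6 Chow_EmKCs libraries at 0.16 or above, and all genes stay near 0.

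Changes followed transcript length too. Across the 77 nuclear subunits Spearman's rho between principal transcript length and log2 fold change was 0.44 in MCD_EmKCs against Chow_EmKCs and -0.43 in MCD_MoKCs against MCD_EmKCs; both use the same MCD_EmKCs libraries, and genes are not replicates. Median log2 fold changes in the first were -0.39 for short and -0.16 for long transcripts, and in the second 0.43 and 0.18. By summed exon length rho was 0.26 and -0.23 over the subunits and 0.13 and -0.04 over all genes tested. Whether length bears on the nuclear changes was not tested.

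Genes around the chain were counted by list. Among all 14875 genes 4.08% passed in the diet comparison, so a count of 0 in a short list is a description only. In MCD_EmKCs against Chow_EmKCs, 0 of 47 further assembly factors, 0 of 30 genes of mitochondrial DNA upkeep, transcription and RNA processing, 0 of 81 mitochondrial ribosomal proteins, 0 of 22 genes of pyruvate dehydrogenase and the citric acid cycle, 0 of 20 genes of electron carriers and coenzyme Q and 0 of 23 carriers, porins and import genes passed in either direction. Tfam, which packages mitochondrial DNA and starts its transcription, had 97.0 to 260.3 in chow and 23.3 to 248.4 under MCD (log2 fold change -0.72, adjusted p = 0.509). Polrmt, the mitochondrial RNA polymerase, had 849.5 ± 185.4 and 781.6 ± 199.1 (-0.13, adjusted p = 0.859).

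Of 13 regulators of respiratory genes Myc alone passed, higher under MCD, with 854.6 to 1817.7 in chow and 2116.3 to 2747.8 in MCD_EmKCs (1.03, adjusted p = 0.00578). Nrf1 (0.14, adjusted p = 0.878), Esrra (-0.11, adjusted p = 0.881) and Ppargc1b (-0.15, adjusted p = 0.879) did not pass, and Ppargc1a, the coactivator of mitochondrial growth, was under the filter with at most 31.6 in any library. Ucp2, an uncoupling protein family member of macrophages, was lower under MCD: 16016.5 to 28555.4 against 13431.9 to 16102.4 (-0.53, adjusted p = 0.0261), with ranges that overlapped. Cycs, cytochrome c, was listed at 1.66 to 99.0 and did not pass in any comparison (adjusted p = 0.325 to 0.892). Shared stretches were searched for members only and not for Cycs, so whether its listed values leave out reads is not known.

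In MCD_MoKCs against MCD_EmKCs, 0 of 47 further assembly factors, 0 of 30 upkeep genes and 0 of 22 citric acid cycle genes passed. The share over all 14875 genes was 10.5% in this comparison, 5.64% higher and 4.90% lower. Of 81 mitochondrial ribosomal proteins Mrpl21 was higher (1.19, adjusted p = 0.0321) and Mrpl3 (-1.13, adjusted p = 0.00126) and Mrps6 (-0.75, adjusted p = 0.0072) were lower. Acod1, which makes itaconate, an inhibitor of complex II, ran from 73.3 to 271.8 on chow, from 177.8 to 621.0 for MCD_EmKCs and from 785.7 to 1640.4 for MCD_MoKCs. All MCD_MoKCs libraries lay above both other groups (1.49, adjusted p = 0.00274 against MCD_EmKCs and 2.62, adjusted p = 1.16e-06 against chow), and the diet comparison did not pass (1.13, adjusted p = 0.0572). Sod2, the superoxide dismutase of the matrix, was higher in MCD_MoKCs than in MCD_EmKCs (0.62, adjusted p = 0.0176) and chow (1.15, adjusted p = 1.49e-05), without overlap in either.

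Against chow, MCD_MoKCs also had higher Hspa9, the import motor of the matrix (0.56, adjusted p = 0.0247), higher Coq10b (0.87, adjusted p = 0.00461), lower Ucp2 (-0.41, adjusted p = 0.0366) and lower Nnt, the proton-linked transhydrogenase (-0.87, adjusted p = 0.00894). Coq10a was lower in MCD_MoKCs than in MCD_EmKCs (-1.02, adjusted p = 0.00954). Myc was higher than in chow (0.77, adjusted p = 0.0116), and Mrpl54 was higher (0.71, adjusted p = 0.0315) and Mrpl3 lower (-1.12, adjusted p = 0.000719).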

How the data were processed

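Sorted Kupffer cells were profiled by RNA-seq in 19 libraries (6 Chow_EmKCs, 6 MCD_EmKCs, 7 MCD_MoKCs). STAR, DESeq2 and the build mm10 are named in the submitters' processing notes, without versions. For the counting tool, its annotation and its treatment of strand and of multiply matching reads, the entry is: not given in the sources used here. The values deposited by the authors are a signal, gene reads divided by a factor per library: 100.0% were whole multiples of a step per library (tolerance 0.001 reads), which gave back the reads. Library totals of 11642240 to 30983487 reads set the counting precision, and reads carry no molecular identifiers.

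Genes reaching 10 in 6 or more libraries were tested with limma 3.58.1 (R 4.3.3; trend and robust variance) on log2(value + 1), all 19 libraries in a single model, two-sided, with Benjamini-Hochberg adjustment over 14875 genes and a threshold of 0.05. Fold changes are differences between group means of log2(value + 1). The added 1 shrinks differences between low values, but libraries at 0 can make a fold change larger than the ratio of mean values. For mt-Nd3 the log2 fold change of MCD_MoKCs against Chow_EmKCs was -1.54, while mean levels per kb were 93.1 and 118.3. The fit was tested on simulated data. Alternatives were other pseudocounts, filters and scalings, edgeR 4.0.16 and DESeq2 1.42.0 on recovered reads, library-number sets, a replicate block, and leaving out libraries. Members and lists were chosen with earlier results of these data known. Genes named were mitochondrially encoded members, members past the threshold, the subunits of highest and lowest level per kb and catalytic subunits of each complex, list genes past the threshold, and a few regulators and relatives; Ndufs3 was added after its values were seen. No library pair held identical values. Sequences came from GENCODE vM21 transcripts and RefSeq promoter windows (GRCm38.p6), both on the mm10 assembly.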

Additional observations from a re-analysis of the deposited data

Results flagged for a closer look

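Within a group, a library was picked out where its gap to the nearest other took up most of the group's range (Dixon's 95% critical value). This held for 6 of 105 groups tested, and chance gives about 1 in 20. The 35 items were single members, the read shares of nuclear and of mitochondrially encoded members, and the ratio of these. Chow_EmKCs 2 was highest for Ndufb4, an accessory subunit of complex I (172.5, next 95.7), and for Ndufs1 (751.0, next 600.1). Chow_EmKCs 3 was highest for Atp5d (2885.1, next 2088.9), and Chow_EmKCs 4 for Atp5g2, a gene for the c subunit of ATP synthase (147.3, next 56.0). MCD_MoKCs 3 was highest for Cox4i2 (143.3, next 44.9). MCD_MoKCs 1 was lowest for Atp5b (5538.6, next 7390.6).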

How the results depend on the processing

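No named value that passed the threshold changed sign. Where a member count below has no count of all genes beside it, it cannot be set against the share of all genes called. In MCD_EmKCs against Chow_EmKCs, 7 mitochondrially encoded calls held under every alternative that used both library-number sets, and fell to 2 in the set up to 33. Nuclear calls there went from 0 to 1 with edgeR and 3 with DESeq2. Genes called went from 607 to 179 (numbers up to 33) and 263 (from 37), where fewer samples enter. In MCD_MoKCs against MCD_EmKCs the 5 nuclear calls became 3 with no filter, with TMM or with the number set as covariate, 2 without trend or robust variance, 8 with DESeq2, 0 within either number set or without MCD_MoKCs libraries 1 to 3, and 23 without libraries 4 to 7. The 1 mitochondrial call became 0 with no filter, without trend, within either number set or without libraries 1 to 3, 2 with a common sum or the 2 groups alone, 3 with DESeq2 and 6 without libraries 4 to 7. Genes called went from 1568 to 870 and 565 within the number sets and 1010 without libraries 1 to 3. In MCD_MoKCs against Chow_EmKCs the 1 nuclear call became 2 with no filter or without trend, 3 with the covariate, 0 with a filter at 50 or from 37, and 6 without libraries 4 to 7. The 6 mitochondrial calls became 1 up to 33 and 2 without libraries 4 to 7, and genes called went from 2493 to 1257 and 1288. The split of MCD_MoKCs libraries follows their values, so counts under it are no test. The cause was not tested.

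Leaving out a library in turn gave, against chow under MCD, 468 to 620 genes, 7 to 7 mitochondrial and 0 to 0 nuclear calls. It gave 1288 to 1596 genes, 0 to 4 mitochondrial and 1 to 7 nuclear calls between the MCD groups, and 2193 to 2590, 4 to 6 and 1 to 2 for MCD_MoKCs against chow. Among single named values, 60 were weaker and 26 stronger under other settings and 1377 kept their side, and 60, 15 and 1749 when a library was left out.

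The replicate numbers did not pair the samples: same-numbered deviations correlated at -0.074 to 0.076, with 0 pairs over 0.1, and 2, 2 and 3 of 6 libraries correlated best with their own number. With a replicate block, nuclear calls were 7 between the MCD groups, 3 of them shared with the 5 above; Ndufaf5 (adjusted p = 0.056) and Sdhb (adjusted p = 0.0587) were lost. Mitochondrial calls were 2, mt-Nd4 and mt-Nd6, and mt-Nd5 was lost (adjusted p = 0.1). For MCD_MoKCs against chow, nuclear calls were 3 and mt-Co1 was lost (adjusted p = 0.0962). With a common sum per library, higher and lower genes in the diet comparison were 248 and 282 against 372 and 235, and medians shifted to -0.13 for all genes, -0.42 for nuclear and -1.54 for mitochondrially encoded members. Depth limits low genes such as mt-Nd3 and Cox4i2.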
